A study of Mus musculus with 12 samples.

Results

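Aldehyde dehydrogenases oxidise aldehydes to carboxylic acids with NAD or NADP as the electron acceptor. The 10 genes described here are Aldh3b1, Aldh3b2, Aldh3b3, Aldh1a1, Aldh1a2, Aldh1a3, Aldh1b1, Aldh2, Aldh3a2 and Aldh9a1. They were found by symbol among the 19938 mouse genes that had a probe set assigned to exactly 1 gene, and all 10 were present on the array. They were selected on these same data: Aldh3b2 and Aldh3b3 had already stood out by a signal that was higher with L-Arg among the mice given DSS, and the probe set used for each gene was chosen by its brightness over the 12 arrays. The values of that comparison are therefore given as a description.

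Transcripts were measured in colon tissue of 12 male wild-type C57BL/6 mice, 1 Affymetrix mouse Gene ST array per mouse and 3 mice per group. Dextran sulfate sodium (DSS), which damages the epithelial lining of the colon, was drunk as a 4% solution for 6 days by the mice of 2 groups. During the following 4 days the DSS+L-Arg mice drank 1% L-arginine (L-Arg) and the DSS mice plain water. The control+L-Arg mice drank 1% L-Arg over those last 4 days, the control mice drank water throughout, and neither group received DSS. All mice were 7 weeks old at the start and were killed on day 10, at 8 weeks and 3 days. By the general methods of the study a proximal and a distal piece of colon were combined. The tissue was not purified epithelium, so fewer cells of a type and less RNA per cell cannot be told apart. Values are log2 signals from the authors' RMA normalization, on which a difference of 1 is a 2-fold difference.

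Members of the family differ in the aldehydes they take and in where in the cell they act. The Aldh1a enzymes turn retinaldehyde, made from vitamin A, into retinoic acid, which in the intestine shapes epithelial differentiation and the homing of immune cells. Aldh2 and Aldh1b1 work in mitochondria on acetaldehyde and on aldehydes left by lipid peroxidation, while Aldh3a2 and the Aldh3b enzymes take the long-chain fatty aldehydes that arise when sphingolipids, plasmalogens and fatty alcohols are broken down.

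The Aldh3b genes lie close together on chromosome 19. In RefSeq gene order (assembly GRCm38.p6, used for names and order only because the deposited values refer to mm9), Aldh3b2 and Aldh3b3 are next to each other with 0 genes between them, and 3 genes separate Aldh3b3 from Aldh3b1. Of the 10 members, 7 have a RefSeq promoter sequence. Those of Aldh3b1 and Aldh3b3 are shown because Aldh3b3 was called in 2 comparisons and its neighbour Aldh3b1 in none.
Aldh3b1: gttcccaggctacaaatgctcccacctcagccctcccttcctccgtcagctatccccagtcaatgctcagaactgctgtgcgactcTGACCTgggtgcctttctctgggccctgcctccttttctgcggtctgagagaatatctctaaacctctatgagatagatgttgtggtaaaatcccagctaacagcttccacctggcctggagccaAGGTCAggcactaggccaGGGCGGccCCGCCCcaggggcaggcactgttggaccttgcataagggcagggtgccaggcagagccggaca
Aldh3b3: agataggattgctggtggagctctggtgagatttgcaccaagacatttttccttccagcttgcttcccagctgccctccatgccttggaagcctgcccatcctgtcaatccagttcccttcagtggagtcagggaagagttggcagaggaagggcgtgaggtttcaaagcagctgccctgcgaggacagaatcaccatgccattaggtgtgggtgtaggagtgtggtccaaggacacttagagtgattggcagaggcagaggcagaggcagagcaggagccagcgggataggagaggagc
Each sequence starts 250 bases before the transcription start and holds 50 bases from it on, in GRCm38.p6, at chr19:3929729-3930028 on the minus strand for Aldh3b1 and at chr19:3958558-3958857 on the plus strand for Aldh3b3. Capitals mark matches, on either strand and without overlap, to any of the motifs searched. These motifs were the TATA box (TATAAA), the GC box (GGGCGG), the AP-1 site (TGANTCA), the Cdx core (TTTATG), the nuclear receptor half-site (AGGTCA) and the antioxidant response element core (TGACNNNGC). The Aldh3b1 window holds 2 GC boxes, at -21 and -13, and 2 nuclear receptor half-sites, at -164 and -39, counted from the start site to the first base of each match. The Aldh3b3 window holds none of the 6 motifs. Of 32851 promoters of this length, 35.7% hold a GC box and 16.3% a nuclear receptor half-site, so both are common. The shares for the other motifs are 13.6% for the TATA box, 7.81% for the AP-1 site, 11.9% for the Cdx core and 12.4% for the antioxidant response element core. The GC content of the windows is 58.7% for Aldh3b1 and 55.7% for Aldh3b3, against a median of 52.7% over all promoters. A match is a description of the letters and not a site of binding.

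Aldh3b2, which in mouse sits on lipid droplets, was low in the DSS mice alone. Its log2 signal was 10.01, 9.90 and 9.69 in the DSS+L-Arg mice, 8.98, 7.94 and 8.50 in the DSS mice, 9.48, 9.78 and 9.20 in the control+L-Arg mice, and 9.86, 9.73 and 9.72 in the control mice. All 3 DSS values lay under every value of the other 3 groups, and those other groups overlapped each other. Group means in falling order were 9.87 ± 0.16 in DSS+L-Arg, 9.77 ± 0.08 in control, 9.49 ± 0.29 in control+L-Arg and 8.47 ± 0.52 in DSS mice (SD, n = 3 each). Only the last step of this order had groups that did not overlap.

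Aldh3b3, an enzyme of the plasma membrane in mouse, had the same order of group means. Its log2 signal was 10.90, 11.13 and 10.95 in the DSS+L-Arg mice, 10.34, 10.02 and 9.96 in the DSS mice, 10.42, 10.91 and 10.44 in the control+L-Arg mice, and 10.91, 10.85 and 10.82 in the control mice. The DSS values again lay under all others, by a narrow margin to the lowest control+L-Arg mouse. In both genes DSS mouse 1 was the highest of its group.

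Between DSS+L-Arg and DSS mice, Aldh3b2 was higher with L-Arg by 1.39 ± 0.22 (SE) on the log2 scale, a 2.63-fold difference, and Aldh3b3 by 0.89 ± 0.14, a 1.85-fold difference. In a limma fit of all genes, in which an adjusted p (Benjamini-Hochberg) under 0.05 made a call, these were the 2 members called higher, and 0 were called lower. Over all genes 0.115% were called higher and 0.522% lower in this comparison. This comparison is the one that had put the pair forward, so nothing is read from that count. Neither gene was called when limma was fitted to these 2 groups alone. Leaving out any 1 DSS+L-Arg mouse also ended both calls, with differences between 1.32 and 1.48 for Aldh3b2 and between 0.82 and 0.93 for Aldh3b3. The call of Aldh3b2 was further lost without control+L-Arg mouse 1, at an unchanged difference of 1.39, and that of Aldh3b3 without DSS mouse 2, at 0.84.

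In DSS against control mice, the difference was -1.29 ± 0.22 for Aldh3b2 (SE, 2.45-fold lower) and -0.75 ± 0.14 for Aldh3b3 (1.69-fold lower), and both genes were called lower. Aldh3b2 lost its call in 1 of 20 alternatives, the fit of these groups alone. Aldh3b3 lost its call there too, and without control mouse 1 (-0.73) or control mouse 3 (-0.77). In DSS+L-Arg against control mice, the differences were 0.10 for Aldh3b2 and 0.13 for Aldh3b3, with the groups overlapping. These comparisons share the DSS or the control mice, so their values are not independent of each other. L-Arg without DSS went with differences of -0.28 ± 0.22 for Aldh3b2 and -0.27 ± 0.14 for Aldh3b3 in control+L-Arg against control mice, and neither was called. The difference between the effect of L-Arg with DSS and that without DSS was 1.68 ± 0.32 for Aldh3b2 and 1.15 ± 0.20 for Aldh3b3, and this interaction was not called for either gene. It was called for both without DSS mouse 1 (1.93 for Aldh3b2, 1.27 for Aldh3b3) or control+L-Arg mouse 2 (1.82 and 1.31 for the same genes), and for Aldh3b3 with array weights (1.08). Because it contains the difference by which the pair was put forward, nothing is read from these interaction calls.

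**Figure D1:**
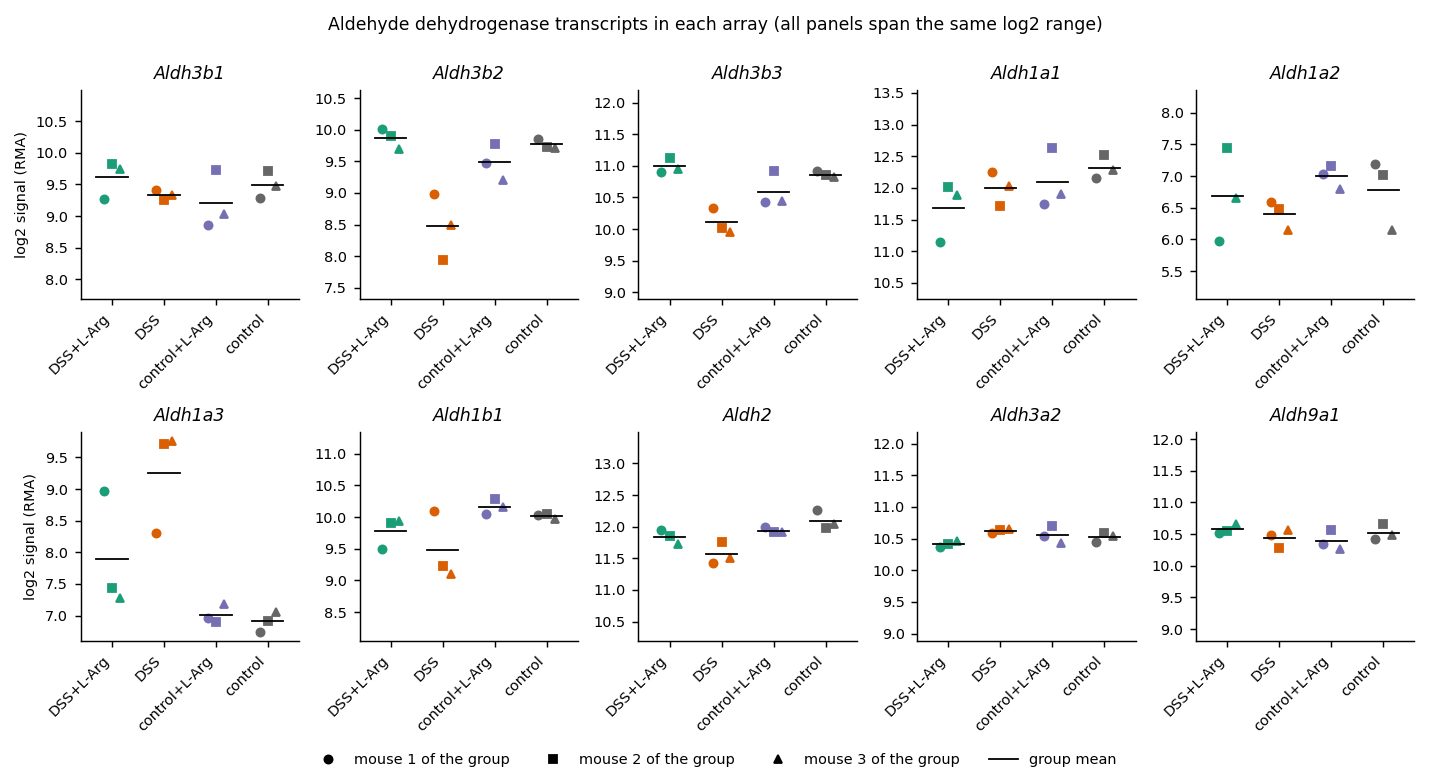
Log2 signal (y axis) of the 10 genes in each of the 12 arrays by group (x axis); symbols are mice numbered within their group, bars are group means, and each panel spans the same log2 range at its own level. The DSS points of Aldh3b2 and Aldh3b3 lie under all others, and those of Aldh1a3 lie above both groups without DSS.

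The pair was measured by 5 probe sets. Aldh3b2 has 1 probe set of its own and Aldh3b3 has 3, and 1 further probe set is assigned to both genes and was not used for either. The shared probe set (10460253) had log2 signals of 11.25, 11.07 and 10.77 in DSS+L-Arg mice, 10.17, 8.98 and 9.50 in DSS mice, 10.56, 10.87 and 10.42 in control+L-Arg mice, and 10.89, 10.85 and 10.84 in control mice. Its difference was 1.48 ± 0.24 (SE) in DSS+L-Arg against DSS mice and -1.31 ± 0.24 in DSS against control mice, close to the values of Aldh3b2. A second probe set of Aldh3b3 (10460251) gave 1.05 ± 0.18 and -0.94 ± 0.18 in the same 2 comparisons. The third (10460257), the dimmest at a mean of 6.21, lay under the array medians over all probe sets (6.49 to 6.64). It gave -0.06 ± 0.11 and 0.01 ± 0.11 and so did not show the differences of the other Aldh3b3 probe sets. Whether so dim a probe set detected the transcript was not tested. How far probes of one gene also read the transcript of the other was not tested.

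**Figure D2:**
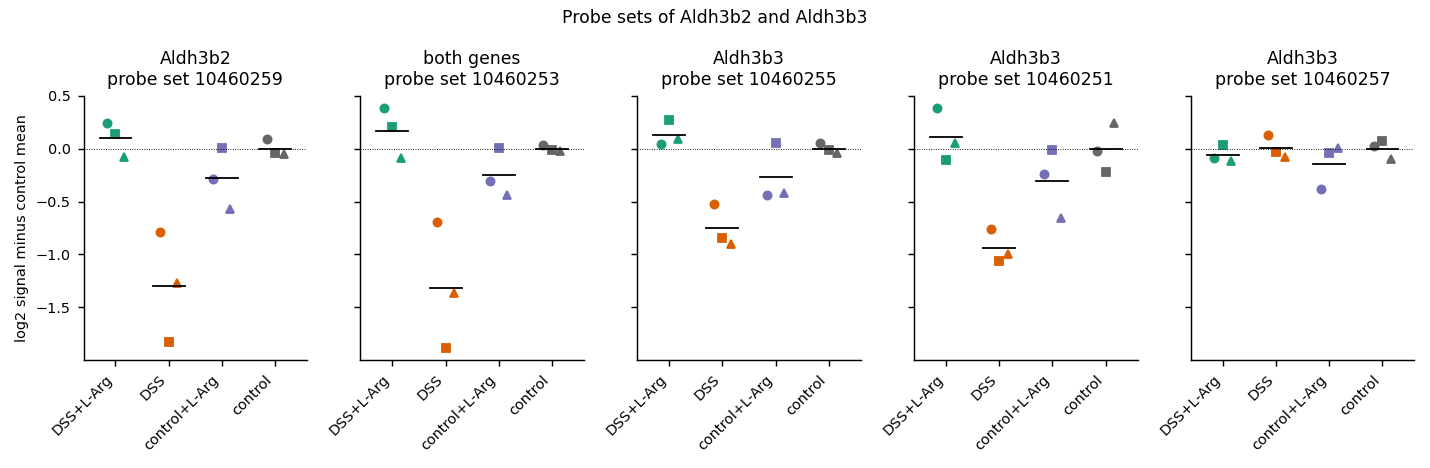
Log2 signal minus the control mean (y axis) for the 5 probe sets of Aldh3b2 and Aldh3b3 in each array by group (x axis); circles, squares and triangles are mice 1, 2 and 3 of a group and bars are group means. The DSS points are low in 4 probe sets, and in 10460257 the 4 groups overlap.

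Aldh3b1, which oxidises lipid-derived aldehydes at the plasma membrane, was not called in any comparison. Its log2 signal was 9.28, 9.82 and 9.75 in the DSS+L-Arg mice, 9.42, 9.25 and 9.33 in the DSS mice, 8.86, 9.73 and 9.03 in the control+L-Arg mice, and 9.28, 9.71 and 9.47 in the control mice. The ranges overlapped throughout, and the differences were 0.28 ± 0.21 (SE) in DSS+L-Arg against DSS mice and -0.15 ± 0.21 in DSS against control mice. The flanking protein-coding genes Ndufs8, Unc93b1 and Acy3 were called neither in DSS+L-Arg against DSS nor in DSS against control mice. For the second comparison, Ndufs8, a subunit of respiratory complex I, differed by -0.27, Unc93b1, a chaperone of endosomal Toll-like receptors, by -0.35 and Acy3, an aminoacylase, by -0.29. For the first they differed by 0.26, 0.40 and 0.22 in the same order. Their signs were thus those of the pair in both comparisons, at smaller size.

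The genes whose levels ran most closely with the pair over the 12 arrays are given as a description, by Pearson's r. For Aldh3b2 they were Tmtc4 (r = 0.971), the complex II subunit Sdha (0.963), Dhcr7 (0.945), which makes cholesterol in its last step, the proteasome activator subunit Psme2 (0.945) and the choline dehydrogenase Chdh (0.941), with Spearman's rho between 0.783 and 0.853. For Aldh3b3 they were Dag1 (r = 0.95), which encodes dystroglycan, Dhcr7 (0.95), 4930404N11Rik (0.937), the mitochondrial ribosome gene Mrpl14 (0.935) and Ppfibp2 (0.93). The pair itself had r = 0.929 and rho = 0.825, which made Aldh3b3 rank 14 for Aldh3b2 and Aldh3b2 rank 6 for Aldh3b3. The 12 arrays come from 4 groups, and each of these genes had a negative difference in DSS against control mice and a positive one in DSS+L-Arg against DSS mice. Apart from the pair these ran from -0.82 to -0.22 and from 0.24 to 0.78.

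Aldh1a3, which makes retinoic acid, was higher in DSS than in control mice, the largest difference of the 10 members. Its log2 signal was 8.97, 7.44 and 7.27 in the DSS+L-Arg mice, 8.31, 9.71 and 9.75 in the DSS mice, 6.97, 6.90 and 7.18 in the control+L-Arg mice, and 6.75, 6.92 and 7.06 in the control mice. The 6 mice that had received DSS lay above the 6 that had not, and among them DSS+L-Arg mouse 1 was higher than DSS mouse 1. In DSS against control mice the difference was 2.35 ± 0.44 (SE), a 5.10-fold difference, with limma's adjusted p = 0.015 over all genes and a range of 0.00312 to 0.0629 over 20 alternatives. The members were picked with results known, so this p and those below are not independent tests. The call was lost when the 2 groups were fitted alone, without control mouse 1 (2.27) and without control mouse 3 (2.43). The difference in DSS+L-Arg against DSS mice was -1.37 ± 0.44 and was not called, and without DSS mouse 1 it was -1.84 and was called. In DSS+L-Arg against control mice it was 0.98 ± 0.44 (limma's adjusted p = 0.387), although all 3 DSS+L-Arg values lay above all control values.

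Aldh1a1, the cytosolic retinaldehyde dehydrogenase, was not called in any comparison. Its log2 signal was 11.15, 12.02 and 11.89 in the DSS+L-Arg mice, 12.25, 11.72 and 12.03 in the DSS mice, 11.74, 12.64 and 11.90 in the control+L-Arg mice, and 12.16, 12.51 and 12.28 in the control mice. DSS+L-Arg values lay under all control values, with a difference of -0.63 ± 0.26 (SE; limma's adjusted p = 0.363), and the other pairs of groups overlapped. Aldh1a2, which makes retinoic acid in the embryo and in intestinal dendritic cells, had 5.97, 7.45 and 6.65 in DSS+L-Arg mice, 6.59, 6.48 and 6.15 in DSS mice, 7.04, 7.16 and 6.80 in control+L-Arg mice, and 7.19, 7.01 and 6.15 in control mice. The 95% intervals of its differences covered 0 in all 6 comparisons, for example -0.38 ± 0.34 in DSS against control mice. Aldh1a2 and Aldh1a3 were the 2 members not above the median of all genes in every array.

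Aldh1a1 and Aldh3b1 varied among mice of 1 group together with markers of position along the colon. The median of 6 posterior markers, Hox genes and Prac1, relative to the control mean was 0.74, -1.50 and -1.47 in the DSS+L-Arg mice, -1.11, -0.80 and -0.37 in the DSS mice, 0.98, -1.12 and 0.46 in the control+L-Arg mice, and 0.65, -1.35 and 0.73 in the control mice. In each of the 4 groups the mouse with the lowest posterior median had the highest Aldh1a1 and the highest Aldh3b1 signal. This was noticed after the values were seen, and the part of tissue position in the level of these genes was not tested. None of the 6 posterior markers was called in any comparison. All 6 lay below 0 in DSS against control mice (median difference -0.69), DSS+L-Arg against control mice (-0.72) and DSS+L-Arg against control+L-Arg mice (-0.81). The median was -0.05 in DSS+L-Arg against DSS mice and 0.07 in control+L-Arg against control mice, with markers on both sides of 0.

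Aldh2, the mitochondrial enzyme that clears acetaldehyde, was lower in DSS than in control mice by a small amount. Its log2 signal was 11.94, 11.85 and 11.73 in the DSS+L-Arg mice, 11.42, 11.76 and 11.50 in the DSS mice, 11.99, 11.91 and 11.91 in the control+L-Arg mice, and 12.27, 11.98 and 12.04 in the control mice. In DSS against control mice the difference was -0.53 ± 0.11 (SE), 1.45-fold lower, with limma's adjusted p = 0.0244 and a range of 0.0147 to 0.119 over 20 alternatives. The call was lost when the 2 groups were fitted alone, without control mouse 1 (-0.45), without control mouse 3 (-0.56) and without DSS mouse 3 (-0.50). DSS+L-Arg mice lay between, overlapping the DSS mice (0.28 ± 0.11), and all under the control mice (-0.26 ± 0.11, limma's adjusted p = 0.377).

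Aldh1b1, a mitochondrial relative that is also found in intestinal crypts, split the DSS mice. It had log2 signals of 9.49, 9.91 and 9.93 in DSS+L-Arg mice, 10.09, 9.23 and 9.10 in DSS mice, 10.04, 10.29 and 10.16 in control+L-Arg mice, and 10.04, 10.06 and 9.97 in control mice. DSS mouse 1 was above all control mice and the other 2 were low, and the difference of -0.55 ± 0.22 (SE) in DSS against control mice was not called (limma's adjusted p = 0.193, 0.00646 to 0.468 over 20 alternatives). Without DSS mouse 1 it was -0.85 and was called. In DSS+L-Arg against control mice the groups did not overlap, at -0.24 ± 0.22 with the DSS+L-Arg mice lower, which was not called.

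The other 2 members varied little among the groups. Aldh3a2, the fatty aldehyde dehydrogenase of the endoplasmic reticulum, had 10.36, 10.42 and 10.46 in DSS+L-Arg mice, 10.59, 10.64 and 10.65 in DSS mice, 10.54, 10.71 and 10.43 in control+L-Arg mice, and 10.44, 10.59 and 10.55 in control mice. The first 2 groups did not overlap, at a difference of -0.21 ± 0.09 (SE), which was not called. Aldh9a1, which serves carnitine synthesis, had 10.52, 10.54 and 10.66 in DSS+L-Arg mice, 10.49, 10.29 and 10.56 in DSS mice, 10.34, 10.57 and 10.26 in control+L-Arg mice, and 10.42, 10.67 and 10.48 in control mice. Its groups all overlapped, with differences between -0.13 and 0.19 in the 5 comparisons of groups.

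Over all 10 members, DSS against control mice gave 1 called higher (Aldh1a3) and 3 called lower (Aldh3b2, Aldh3b3 and Aldh2), where 1.8% of all genes were called higher and 2.23% lower. Of the 10 members, 8 lay below 0, with a median difference of -0.35 on the log2 scale against -0.01 over all genes. The DSS mice also enter the comparison that put the pair forward, so nothing is read from the pair's part of these calls. Without the pair, 1 of the 8 remaining members was called higher and 1 lower, with a median of -0.23. The median in DSS+L-Arg against DSS mice was 0.28 against 0.06 over all genes, and 0.20 without the pair. In the 4 remaining comparisons limma called 0 of 10 members in either direction. Of all genes, 0.0301% were called up and 0.0351% down for DSS+L-Arg against control, 0.0% and 0.0% in control+L-Arg against control, 0.201% and 0.105% in DSS+L-Arg against control+L-Arg, and 0.01% and 0.0652% for the interaction. At an unadjusted p under 0.05, 3, 0, 1 and 4 members passed in these 4 comparisons in the order given, where 12.6%, 3.44%, 15.6% and 10.8% of all genes did. They were Aldh1a1, Aldh1a3 and Aldh2 in the first, Aldh3b3 in the third, and Aldh3b2, Aldh3b3, Aldh1a3 and Aldh2 for the interaction. The interaction contains the difference by which the pair was put forward, so nothing is read from its count.

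The same fit was also read at the thresholds of the study (unadjusted p under 0.01, more than 2-fold). They took 2 members in DSS+L-Arg against DSS (Aldh3b2 and Aldh1a3), where 0.953% of all genes passed, and the same 2 in DSS against control, where 2.13% passed. The DSS+L-Arg against DSS comparison had put the pair forward, so nothing is read from its count. The same DSS mice enter DSS against control, so nothing is read from the passing of Aldh3b2 there. These thresholds took 0 members in DSS+L-Arg against control (0.446% of all genes), 0 in control+L-Arg against control (0.015%) and 0 in DSS+L-Arg against control+L-Arg (0.727%). The interaction took 2, Aldh3b2 and Aldh3b3, where 1.05% of all genes passed. The interaction contains the difference between DSS+L-Arg and DSS mice that put the pair forward, so nothing is read from that count either.

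**Figure D3:**
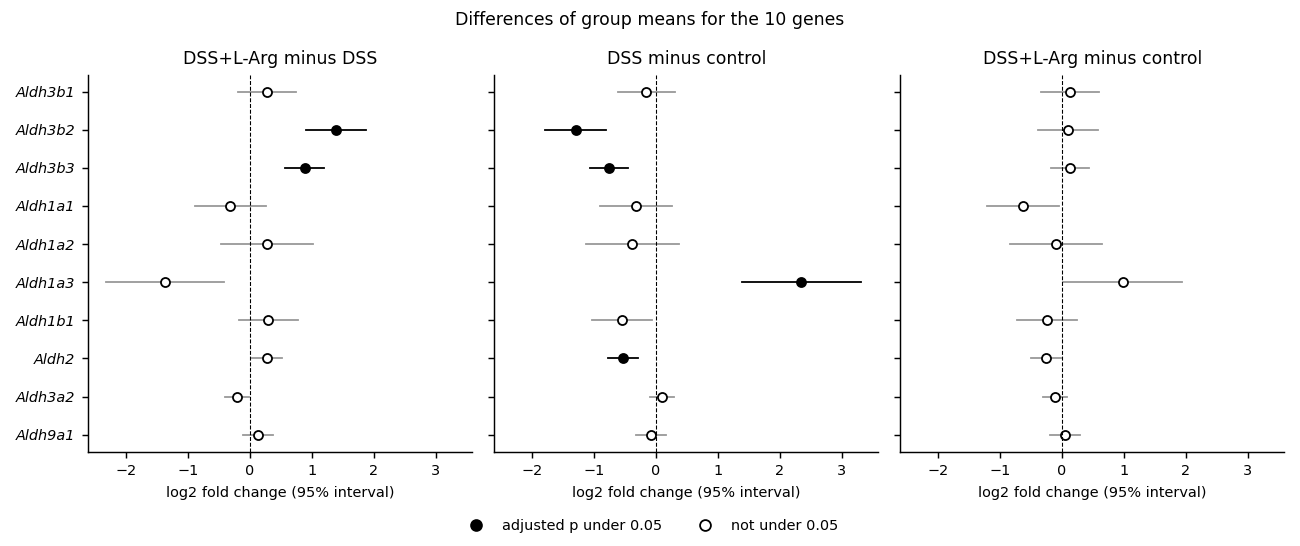
Log2 fold change (x axis) of the 10 genes in 3 comparisons, with 95% intervals from limma; filled points had an adjusted p under 0.05 and open points did not. Aldh3b2 and Aldh3b3 lie at 1.39 and 0.89 in the left panel and near 0 in the right panel, and Aldh1a3 lies at 2.35 in the middle panel.

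Of the 11 other aldehyde dehydrogenase genes measured, limma called 0 in any of the 6 comparisons. In DSS against control mice 9 of the 11 lay below 0, at a median of -0.23 against -0.01 over all genes, and 4 had an unadjusted p under 0.05, as did 19.6% of all genes. These 4 were Aldh6a1 of valine breakdown at -0.64 ± 0.16 (SE; limma's adjusted p = 0.0512), Aldh7a1 of lysine breakdown at -0.45 ± 0.12 (adjusted p = 0.0602), Aldh4a1 of proline breakdown at -0.64 ± 0.19 (adjusted p = 0.0887) and Aldh1a7, a close relative of Aldh1a1, at -0.66 ± 0.21 (adjusted p = 0.107). In each of the 4 the DSS and control mice did not overlap, which held for 25.0% of all genes. The median of the 11 in DSS+L-Arg against DSS mice was 0.14, and 1 had an unadjusted p under 0.05 (13.5% of all genes), Aldh7a1 at 0.42 ± 0.12. In the other comparisons 3 (DSS+L-Arg against control), 0 (control+L-Arg against control), 2 (DSS+L-Arg against control+L-Arg) and 1 (interaction) of the 11 had such a p. The shares of all genes were 12.6%, 3.44%, 15.6% and 10.8% in the same order.

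Of 25 measured genes of retinoid handling, the pathway that feeds Aldh1a enzymes and uses their product, limma called 1 higher and 1 lower in DSS against control mice and 0 in every other comparison. Rdh10, which makes retinaldehyde from retinol, had log2 signals of 9.91, 10.84 and 10.88 in DSS mice and 9.67, 9.51 and 9.45 in control mice, a difference of 1.00 ± 0.22 (SE; adjusted p = 0.0314). Lrat, which stores retinol as its ester, had 7.74, 5.36 and 6.00 in DSS mice and 7.96, 8.64 and 8.70 in control mice, a difference of -2.07 ± 0.51 (adjusted p = 0.0483). Both split the DSS mice as Aldh1a3 did, with mouse 1 nearest to the control mice. In DSS+L-Arg mice Rdh10 had 10.32, 10.09 and 9.88 and Lrat had 6.22, 7.36 and 7.04, both overlapping the DSS mice. Against control mice, all DSS+L-Arg mice were higher for Rdh10 (0.55 ± 0.22) and lower for Lrat (-1.56 ± 0.51). Neither of these differences was called. Rdh10 kept its call in 11 of 20 alternatives (adjusted p 0.00085 to 0.138) and Lrat in 5 of 20 (0.00251 to 0.167). At an unchanged difference, both lost it with the mouse number as a replicate block (limma's adjusted p = 0.0501 for Rdh10, 0.0785 for Lrat) and in the fit of the 2 groups alone (0.138 for Rdh10, 0.157 for Lrat). Array weights ended both calls too (0.75 for Rdh10, -1.54 for Lrat), and further quantile normalization (-1.99) or a trended and robust prior (-2.07) ended that of Lrat. Leaving out DSS mouse 2 or DSS mouse 3 ended both calls, at 0.85 and 0.83 for Rdh10 and at -1.56 and -1.88 for Lrat, and leaving out any 1 control mouse also did, at 0.95 to 1.07 for Rdh10 and -2.30 to -1.93 for Lrat. The call of Rdh10 was further lost without control+L-Arg mouse 1, and that of Lrat without any 1 of the control+L-Arg mice or without DSS+L-Arg mouse 2 or 3, each at an unchanged difference. The median of the 25 genes was -0.02 in DSS against control mice, and 6 of them had an unadjusted p under 0.05 there, against 19.6% of all genes. In DSS+L-Arg against DSS mice 3 of the 25 did, against 13.5% of all genes.

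A list of 16 measured genes held mainly genes of fatty alcohol, plasmalogen and sphingolipid breakdown, the source of fatty aldehydes. It also held Far1 and Far2, which make fatty alcohols, and Gnpat and Agps, which build ether lipids. Of the 16 genes limma likewise called 1 higher and 1 lower in DSS against control mice, and 0 elsewhere. An unadjusted p under 0.05 was reached by 5 of the 16 in DSS against control mice, against 19.6% of all genes. Far1 (-0.38) and Far2 (-1.05) were among these 5. In DSS+L-Arg against DSS mice 4 did, Far1 (0.45) among them, against 13.5%. The counts were 3 in DSS+L-Arg against control (12.6% of all genes), 0 in control+L-Arg against control (3.44%), 2 in DSS+L-Arg against control+L-Arg (15.6%) and 3 for the interaction (10.8%). Sphk1, which phosphorylates sphingosine, had 7.20, 7.86 and 7.62 in DSS mice and 6.84, 6.90 and 6.71 in control mice (0.74 ± 0.15, SE; adjusted p = 0.0197, 0.0024 to 0.11 over 20 alternatives). Acer1, an alkaline ceramidase, had 9.75, 9.58 and 9.67 in DSS mice and 10.36, 10.02 and 10.25 in control mice (-0.54 ± 0.12; adjusted p = 0.0347, 0.0247 to 0.135 over 20 alternatives). Both lost their call in the fit of the 2 groups alone (limma's adjusted p = 0.11 for Sphk1, 0.0938 for Acer1), and Acer1 also with arrays centred on their medians (-0.51). Sphk1 further lost it without control mouse 1 (0.75) or control mouse 3 (0.69), and Acer1 without control mouse 1 (-0.46), control mouse 3 (-0.52), DSS mouse 2 (-0.50) or DSS mouse 3 (-0.54). A further list of 17 measured genes held mainly alcohol dehydrogenases and aldehyde reductases, the enzymes that work in the opposite direction or one step earlier. It also held the aldehyde oxidases Aox1, Aox3 and Aox4 and the gene Gpx4, which belong to neither class. Of the 17 genes 0 were called in any comparison. In DSS against control mice 4 had an unadjusted p under 0.05, against 19.6% of all genes. In each other comparison 0 or 1 did, against 3.44% to 15.6% of all genes.

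Cell type markers were read beside these results, as medians of a list per array relative to the control mean. All 12 colonocyte and all 11 general epithelial markers lay above the median of all genes in every array. Colonocyte markers stayed near 0, between -0.10 and -0.02 in DSS+L-Arg mice, between -0.03 and 0.03 in DSS mice and between -0.01 and 0.02 in control mice. General epithelial markers lay between -0.0047 and 0.07, between -0.03 and 0.03 and between -0.05 and 0.03 in the same groups. These are medians, and single colonocyte markers differed by -0.79 to 0.39 in DSS against control mice and by -0.67 to 1.15 in DSS+L-Arg against DSS mice. Of the colonocyte list Car4 was called lower in DSS against control mice (-0.58, limma's adjusted p = 0.0106), and of the general epithelial list 0 were called in any comparison. The goblet cell median was 0.00 to 0.05 in DSS+L-Arg mice and 0.10, -0.15 and -0.77 in DSS mice, with Clca1 called lower in DSS against control mice. The crypt stem and progenitor median was 0.00, -0.33 and -0.11 in DSS mice and -0.11 to -0.06 in DSS+L-Arg mice. In control+L-Arg mice it was 0.06 to 0.49, and in control mice -0.02 to 0.07. The mesothelium median was -0.19 to -0.04 in DSS mice and -0.41 to 0.28 in control mice. Of both lists 0 markers were called in any comparison.

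Some other lists differed in the DSS mice, and their part in the levels of the members was not tested. The median of 10 neutrophil markers was 0.66, 0.20 and 0.32 in DSS+L-Arg mice, 3.32, 2.37 and 4.81 in DSS mice, and between -0.46 and 0.65 in control mice. Limma called 8 of the 10 higher in DSS against control mice and 4 lower in DSS+L-Arg against DSS mice. The median of 12 macrophage and dendritic cell markers was 0.38, 0.36 and 0.19 in DSS+L-Arg mice, 0.83, 1.20 and 1.54 in DSS mice, and between -0.08 and 0.05 in control mice, with 7 of the 12 called higher and 2 lower in the same comparisons. The fibroblast median overlapped between the groups, at -0.04, 0.38 and 0.04 in DSS+L-Arg mice, 1.06, 0.42 and 0.13 in DSS mice, 0.13, 0.05 and 0.84 in control+L-Arg mice, and -0.12, -0.02 and 0.18 in control mice. Of its 8 markers Pdgfra and Dcn were called higher in DSS against control mice, and Dcn was called lower in DSS+L-Arg against DSS mice. The smooth muscle median lay between -1.24 and -0.28 in DSS+L-Arg mice and between -1.66 and -0.98 in DSS mice. In control+L-Arg mice it lay between -0.71 and 1.11, and in control mice between -0.44 and 0.76. Of its 8 markers 0 were called, but all 8 lay below 0 in DSS against control and in DSS+L-Arg against control+L-Arg mice. An unadjusted p under 0.05 was reached there by 5 (19.6% of all genes) and 7 (15.6%), and by 2 in DSS+L-Arg against control mice (12.6%).

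**Figure D4:**
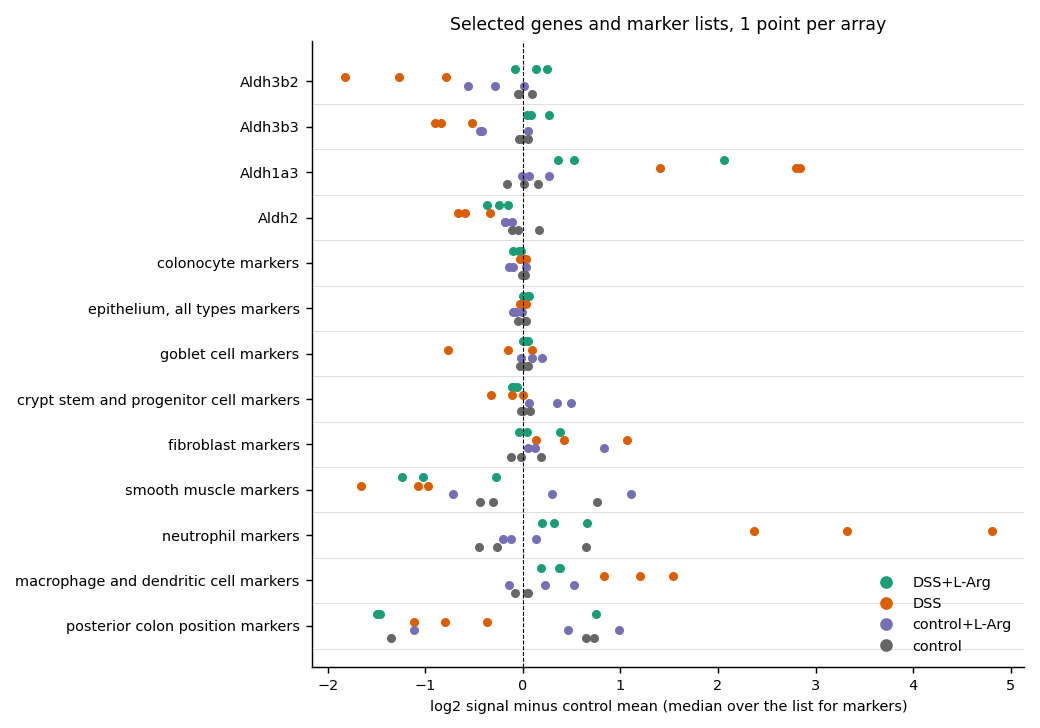
Log2 signal minus the control mean (x axis), 1 point per array coloured by group, for 4 genes and, below them, the median of each marker list except mesothelium. Colonocyte and epithelial markers sit near 0 in all groups, while the neutrophil median is 2.37 to 4.81 in the DSS mice and 0.20 to 0.66 in the DSS+L-Arg mice.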

How the data were processed

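Colon RNA of 12 mice was hybridised to 12 arrays, and groups were taken from the submitters' labels. The authors deposited 1 log2 signal for each probe set and array, and their notes name Affymetrix Expression Console 1.1, RMA and mm9. RMA corrects the background, makes the distributions of the arrays alike and summarises probes, so a shift common to most genes would be hidden. Array medians lay between 6.49 and 6.64. Precision is limited by the number of mice, since arrays carry no read depth.

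The platform table gives 1 gene for 21789 of the 35556 probe sets and several for 1621, and does not list 12146. The brightest probe set of each gene was kept (999 genes had more than 1), which left 19938 genes, and 19856 matched the RefSeq table by Entrez identifier. All genes were fitted in R 4.3.3 (limma 3.58.1), with a mean for each group and all 12 arrays (8 residual and 3.37 prior degrees of freedom), and adjusted by Benjamini-Hochberg over all genes. P-values set a difference of group means against the spread between mice, which was pooled over all groups and moderated by the other genes. The study names SAM, which permutes labels, and it was not run here. The script was tested on simulated data. The members, lists and tests were chosen with earlier results of these data known. All members are named, with the called genes of each pathway list, up to 4, and the 5 genes most like Aldh3b2 and Aldh3b3. Promoter sequences are RefSeq's.

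Alternatives tried were limma on the compared groups alone, the mouse number as a replicate block, median centring, further quantile normalization, leaving out genes not above the 30th percentile in at least 3 arrays (14510 genes stayed, all 10 members among them), array weights, averaging the probe sets of a gene, a trended and robust prior, the thresholds of the study, Spearman's rho and leaving out each array. The labels do not say that mouse numbers pair mice. Only between control+L-Arg and control did same-numbered mice deviate together for all 3 numbers (correlations of 0.205, 0.477 and 0.261). A block within those groups was therefore added after seeing the data. DSS+L-Arg mice 1 and 2 also deviated with the same-numbered control mice (0.408 and 0.305) and control+L-Arg mice (0.351 and 0.206). DSS+L-Arg mouse 3 did not (-0.0496 with control, -0.281 with control+L-Arg).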

Additional observations from a re-analysis of the deposited data

How the results depend on the processing

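In DSS+L-Arg against DSS mice, 2 of the 10 members were called, 0 when only these groups were fitted and 0 to 3 when 1 array was left out. In DSS against control mice 4 were called, 0 in a fit of only these groups, 2 at the thresholds of the study and 1 to 5 without 1 array. For the interaction of DSS and L-Arg 0 were called, 1 with array weights, 2 at the thresholds of the study and 0 to 2 without 1 array. The other 3 comparisons had 0 calls under every alternative run. With the mouse number as a replicate block the counts stayed at 2 and 4 in the first 2 comparisons and 0 in the other 4, and at 0 for control+L-Arg against control in the fit of those groups alone, so the block changed no call of a member. Outside the members, Rdh10 and Lrat lost their calls in DSS against control mice under it (limma's adjusted p = 0.0501 for Rdh10, 0.0785 for Lrat). A fit of only 2 groups estimates the spread from fewer arrays, as does leaving an array out, and the cause of the other changes was not tested. By Spearman's rho, 0 of the 5 genes most like Aldh3b2 and 1 of the 5 most like Aldh3b3 were kept. Of 1190 values of single members under an alternative, 1161 kept their direction and their side of the threshold or moved by less than the spread between mice, 21 lost a call, 7 gained one, 1 moved by more and 0 changed sign as called values. The 1 was the interaction of Aldh3b3, 0.86 with the mean of its probe sets against 1.15. With 3 mice per group, each call rested on few arrays.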
